A study of Mus musculus with 2 samples.

Results

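The cytosines described here are the most deeply read ones of a mouse hippocampal methylation data set, those with at least 500 reads in each of its 2 libraries. Cytosines on the mitochondrial genome and the sex chromosomes, with their unplaced contigs, were left out. Of 7818148 CpG cytosines listed in either library, 2998 (0.0383%) met this rule. Members lying within 1000 bp of each other were joined, which gave 393 loci. The members were chosen by read depth alone, so depth is described below without a test, while methylation levels, strand and CpG spacing were not used by it.

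The DNA was taken from the hippocampus of C57BL/6 mice, a part of the brain that memory depends on. The first library, called control here, was from untreated mice. The second, called ATO, came from offspring whose drinking water carried 5000 ppb arsenic trioxide during development, from before mating to lactation, and who kept receiving it after weaning. It is not stated whether a library was made from a single animal or from a pool, and both are bulk tissue. With 1 library per group there is no replicate check: every difference below is between these 2 libraries, and the exposure itself could not be tested.

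DNA was enriched with a mouse SureSelect Methyl-Seq kit, treated with bisulfite and sequenced. Bisulfite converts unmethylated cytosine so that it is read as T, and the methylation level is the percent of reads that still show C. Multicopy DNA includes ribosomal RNA gene arrays, satellite repeats at centromeres and recently duplicated gene clusters. In a reference assembly such DNA is often represented by fewer copies than a genome carries. Reads of several copies can then be placed on a single site, and reads of near-identical listed copies can be split or exchanged between them. Levels at such sites are averages over copies, and the listed copies are not independent measurements. How reads with several placements were treated is not given in the sources used here. Bulk DNA also does not tell a change in the level of each copy from a change in which copies were read.

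The members held 2.75% of the control library's 135987272 calls and 2.81% of the ATO library's 147924810. Their median depth was 827 reads in control and 904.5 in ATO, against 41 and 44 over the 2311800 cytosines outside the mitochondrial genome with at least 10 reads in both libraries. The deepest member, on the reverse strand at chr15:74917198 (mm9), had 17955 and 18330 reads and levels of 58.0% and 56.0%. A further 638 cytosines reached 500 reads in only 1 of the libraries. The 3 members nearest above the threshold lay on chromosome 14 at 4603129 and on chromosome 4 at 60200975 and 146686127, with control levels of 4.80%, 95.8% and 90.2% and ATO levels of 4.69%, 96.8% and 91.0%. The 3 cytosines nearest below it, each 1 read short in the shallower library, lay on chromosome 11 at 3057886, chromosome 12 at 20077255 and chromosome 3 at 9450940. Their levels were 61.3%, 52.2% and 92.6% in control and 56.9%, 47.7% and 92.7% in ATO.

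Most of this depth lay in few places. Of the 393 loci, 95 held a single member and 71 held 2, while the 56 loci with at least 10 members held 1910 of the 2998. Loci with 3 or more members, 227 in number, spanned a median of 291 bp, and the longest spanned 11721 bp. All 19 autosomes carried members, but 5 of them (chromosomes 11, 17, 8, 4 and 14) held 70.7%. Several stretches were dense in loci. On chromosome 11, 17 loci with 452 members lay between 3025974 and 3098290. On chromosome 8, 40 loci with 267 members lay between 19682575 and 20029306. On chromosome 4, 46 loci with 193 members lay between 145021817 and 147183578, and on chromosome 14, 43 loci with 207 members lay between 3050245 and 8490016. The 4 random contigs, which hold sequence that the assembly has not placed, carried 16 loci with 50 members. The files name no genes and no mm9 annotation was used, so the gene context of the loci is not given.

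Highly, partly and weakly methylated loci were all present. Of loci with 3 or more members, 28 were below 20% in the mean of both libraries, 119 between 20 and 80%, and 80 above 80%. The largest highly methylated loci were on chromosome 11 from 106909956 to 106912482 (93 members) and on chromosome 12 from 106261354 to 106262160 (66 members). The first averaged 96.1% in control and 96.7% in ATO, and the second 97.1% and 97.6%. Another chromosome 11 locus, 5068524 to 5070413, averaged 89.9% and 89.7% over 57 members. The deepest cytosines of these 3 loci, at 106910054, 106261657 and 5069468, had 95.6, 95.6 and 96.4% in control and 97.1, 95.3 and 96.9% in ATO, and none was called (Fisher's exact test, adjusted p from 0.588 to 1). Single members above 90% in the mean of both libraries numbered 830, and those below 10% numbered 282.

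**Figure D1:**
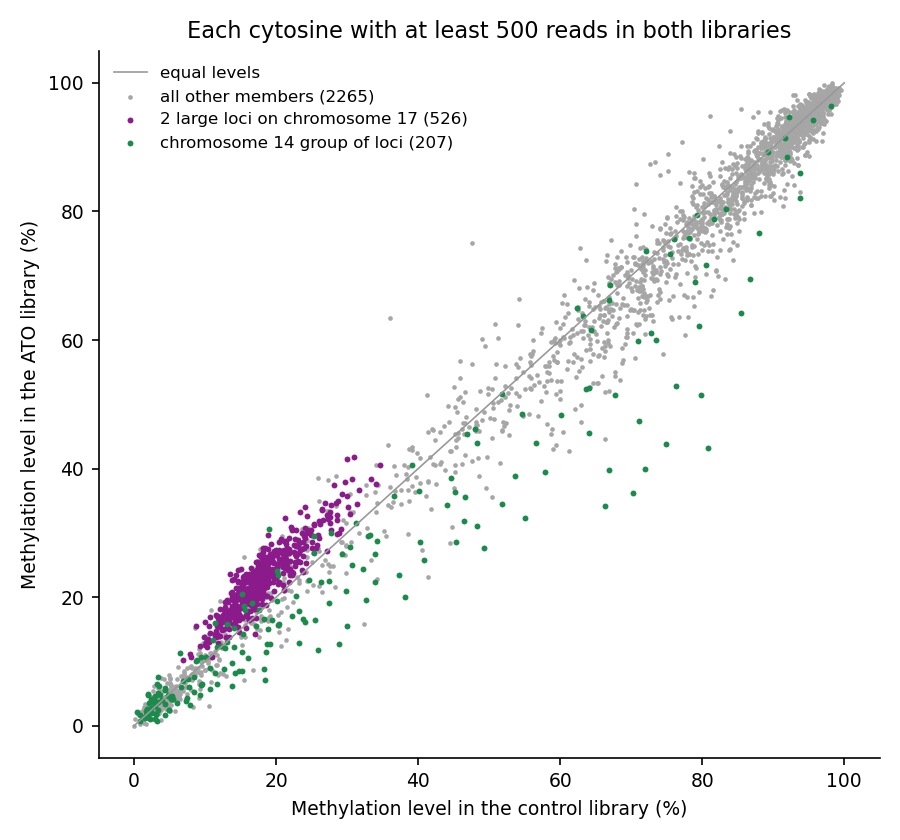
Methylation level of each of the 2998 members in the control library (x axis, percent) and the ATO library (y axis, percent), with the line of equal levels. The 526 members of the large chromosome 17 loci lie mostly above the line, with 521 higher in ATO, and those of the chromosome 14 group mostly below it, with 150 of 207 lower.

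Averaged over all members the levels were 58.7% in control and 58.5% in ATO, and 1503 members were higher and 1494 lower in ATO, with 1 equal. The mean difference, ATO minus control, was -0.164 percentage points (SD between members 4.72). Cytosines with at least 100 but fewer than 500 reads in the shallower library differed by -1.12 points (SD 9.96), and all 2311800 tested by -1.28 points (SD 11.9). The member mean combined opposite differences. Without both large chromosome 17 loci it was -1.19 points, without the chromosome 14 group it was 0.192 points, and with each locus weighted alike it was -1.56 points. Over loci, 259 were lower and 134 higher in ATO, with a median of -0.878 points. By level, members at 40 to 60% differed by -3.72 points, those at 60 to 80% by -2.79 points and those above 90% by -0.0477 points. In the same classes, cytosines with 100 reads up to the member threshold differed by -2.92, -2.81 and -0.460 points. The losses at 40 to 80% were therefore not confined to members. Members at 10 to 20% were higher, by 2.45 points (396 members), and so were those at 20 to 40%, by 2.67 points (419 members). Without chromosome 17 these 2 classes differed by -0.626 and -1.77 points. Members below 10% differed by -0.344 points.

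For each cytosine the methylated and unmethylated calls of both libraries were set against each other (Fisher's exact test, two-sided, Benjamini-Hochberg over all 2311800). With adjusted p under 0.05 and levels at least 25 points apart, 9 of 2998 members were called, 7 lower and 2 higher in ATO. That is 0.3%, against a background of 2.65% over all tested cytosines (1.73% lower and 0.917% higher) and 4.07% of the cytosines with 100 reads up to the member threshold. At 10 points or more apart, 128 members were called, 100 lower and 28 higher. This was 4.27%, against 3.81% over all tested cytosines (2.47% lower and 1.34% higher) and 10.4% of those with 100 reads up to the threshold. These tests cover the counting error of reads in 2 libraries. At 500 reads a 10-point difference is resolved against that error, which is not so at 10 reads, so shares at unlike depths are not directly comparable. The 128 members lay in 67 loci, and the lower ones were mainly on chromosome 14 (44), chromosome 8 (21), chromosome 4 (14) and chromosome 1 (13). The 7 members called lower at 25 points were all in the chromosome 14 group.

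The locus with the most members lay on chromosome 17, from 39980074 to 39983243 (442 members), with another of the 8 largest nearby, from 39985348 to 39985728 (84 members). Whether these loci belong to a ribosomal RNA gene repeat was not tested, and no copy number was measured. The first locus averaged 18.3% in control and 23.0% in ATO, and the second 17.3% and 21.5%. Intervals on their summed calls, divided to allow for shared fragments, did not overlap. They were 17.8 to 19.2% in control and 22.5 to 23.9% in ATO at the first locus, and 16.0 to 19.2% and 19.8 to 23.1% at the second (exact 95% intervals, counting error only). Together the 526 members were 4.66 points higher in ATO, and 521 of them were higher.

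The difference was positive all along the loci. In the 9 windows of 500 bp that held members, the mean difference ran from 3.52 to 6.19 points, and by strand from 1.89 (12 forward members) to 6.19 points (27 reverse members). The deepest cytosine, at 39980263 on the reverse strand, had 6822 reads in control and 7306 in ATO and levels of 18.8% (17.9 to 19.8) and 24.6% (23.6 to 25.6), with an adjusted p of 6.5e-13 by Fisher's exact test. At the second locus the deepest cytosine, 39985454, had 18.6% and 23.2% (Fisher's exact test over 3559 and 3732 reads, adjusted p = 0.000227). Of the 526 members 5 were called at 10 points, all higher, against 1.34% called higher over all tested cytosines. Members on the forward strand averaged 17.5% in control and 21.3% in ATO (138 members, 134 higher), and those on the reverse strand 18.4 and 23.3% (388 members, 387 higher). At 136 CpGs both strands were members, and at 133 of these both were higher in ATO.

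Depth at these loci differed by strand between the libraries. The median ratio of ATO to control reads was 1.34 on the forward and 1.08 on the reverse strand, against 1.09 over all tested cytosines. This was not particular to these loci. At chr8:56205544-56207126 the ratios were 1.52 and 1.11, with levels lower in ATO on both strands. At chr15:74916808-74917370 they were 1.24 and 1.02, with levels lower by 1.84 and 1.97 points. At chr4:118220498-118221291 they were 1.29 and 1.04, with levels higher in ATO by 3.92 points on the forward and 2.06 on the reverse strand. At chr2:98506867-98507413 the strands were alike, at 2.03 and 2.02. The part of strand depth in the difference in level at the chromosome 17 loci was not tested. Tested cytosines under 500 reads that lay among the members did not all share the difference. In the first 3000 bp, 213 on the forward strand averaged 17.1% in control and 20.6% in ATO, with 172 higher, and 32 on the reverse strand averaged 15.1 and 16.1%, with 20 higher. From 5000 bp on, 74 such cytosines averaged 16.5 and 15.04%, with 37 higher and 35 lower, at median depths of 95.5 and 129 reads.

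Between the 2 chromosome 17 loci lay a stretch with neither the depth nor the low level. Between 3500 and 5000 bp after the first member, 200 cytosines had median depths of 50.5 and 68 reads and none was a member. They averaged 79.95% in control and 76.7% in ATO. The strands differed in direction there. On the reverse strand 112 cytosines averaged 83.5% in control and 73.3% in ATO, with 93 lower, and on the forward strand 88 averaged 75.5 and 80.9%, with 61 higher. In the second 500 bp of that stretch all 37 reverse-strand cytosines were lower, with a mean difference of -18.5 points. At these depths 13 of the 200 were called at 10 points, against 3.81% over all tested cytosines. Over all 573 tested cytosines under 500 reads in the whole span, this stretch included, the mean difference was 0.198 points, against 4.66 for the members.

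**Figure D2:**
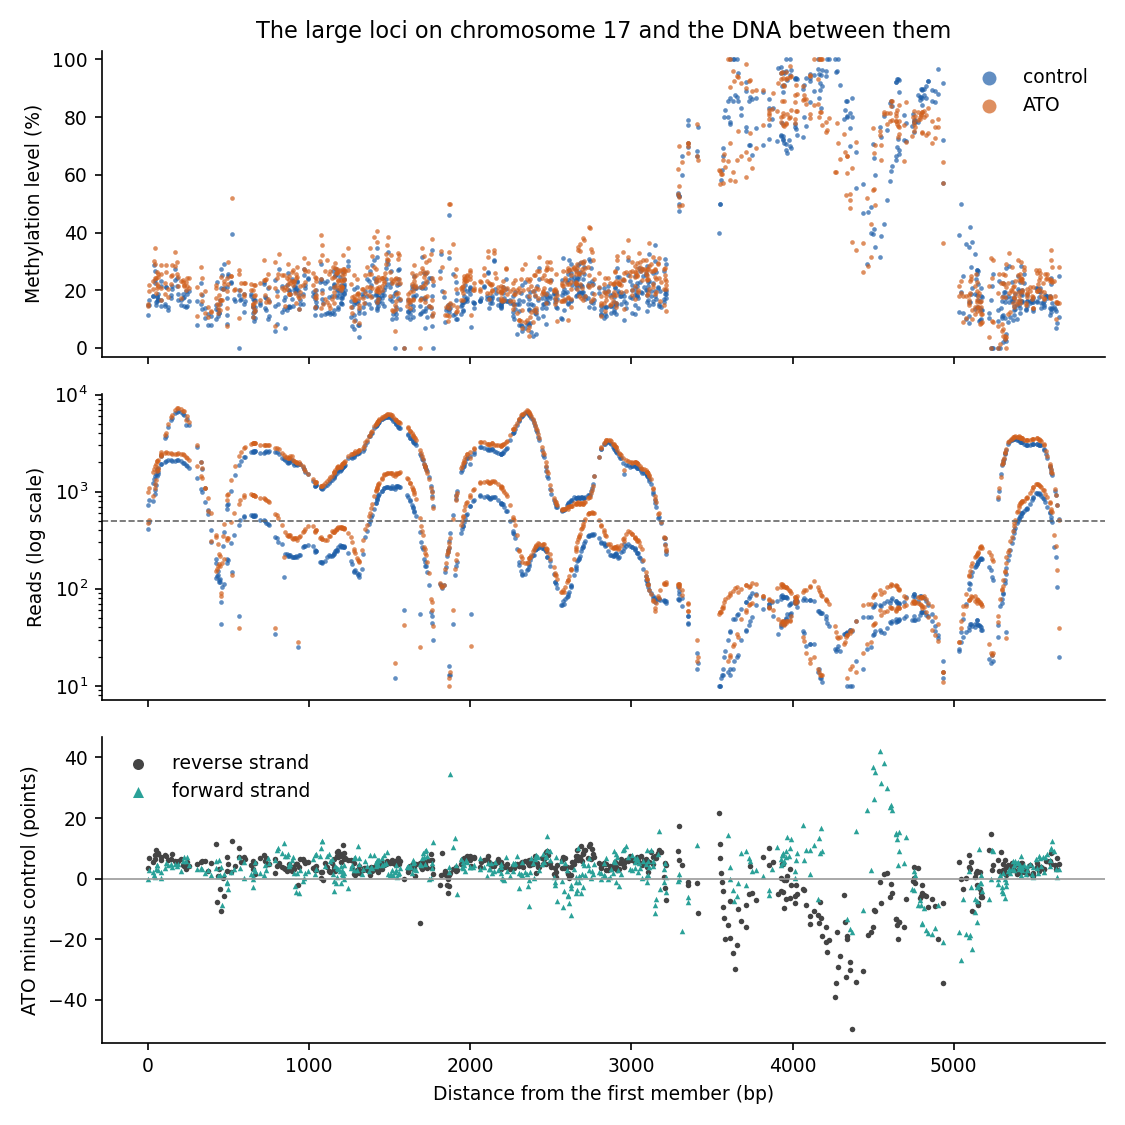
Level (top, percent), reads on a log scale (middle, with a dashed line at 500) and ATO minus control (bottom, percentage points) for each cytosine with at least 10 reads in both libraries, by distance in bp from the first member of the large chromosome 17 loci. Members average 18.1% in control and 22.8% in ATO, and the shallow stretch between the loci averages 79.95% and 76.7% with opposite differences on the strands.

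Other loci of low to middle level were higher in ATO by similar amounts, but not all were. On chromosome 1, 172999965 to 173001018, 11 members averaged 25.5 and 30.2%, a gain of 4.70 points. On chromosome 19, 61275584 to 61275728, 12 members averaged 17.1 and 21.4%, and at 9911223 to 9911335 on the same chromosome 8 members averaged 31.2 and 35.3%. These last loci were picked after their values were seen. Of all 28 loci with 3 or more members and 10 to 40% in control, 10 were higher and 18 lower.

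The chromosome 14 group held the largest losses. Its 207 members averaged 30.2% in control and 25.2% in ATO, a mean difference of -4.95 points, and 37 of its 43 loci were lower. At 10 points 43 of its 207 members were called lower and 1 higher, against 2.47% lower and 1.34% higher over all tested cytosines. The 4 loci with the largest losses among those with 3 or more members lay here, each with 3 reverse-strand members, and at each all 3 members were lower. From 6171257 to 6171296 the level was 75.9% in control and 42.3% in ATO. From 6094708 to 6094758 it was 61.4 and 35.2%, from 6013345 to 6013371 it was 70.4 and 51.1%, and from 8148560 to 8148610 it was 59.7 and 40.5%. Intervals of the libraries did not overlap at any of the 4. At the first of the 4 loci the control interval was 72.1 to 79.4% and the ATO interval 38.3 to 46.4%. The member with the largest difference of those called at 25 points, 6171296, picked out after its value was seen, had 80.8% of 548 reads in control and 43.2% of 622 in ATO (Fisher's exact test, adjusted p = 8.4e-35).

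Many of these loci shared the spacing of their CpGs and are called copies of a unit here. No sequence was read. Runs of 6 CpGs whose 5 gaps recurred at another place, in either orientation, were taken as shared. Of the 1957 members that lay in any run of 6 CpGs, 12.3% lay in a shared one, against 2.43% for cytosines with 100 reads up to the threshold and 1.92% for those with 10 reads up to 100. In all, 104 loci held a run found elsewhere, and 58 shared one with another locus, in 14 families. The largest family had 27 loci with 166 members, all on chromosome 14, with 26 in the group above and the last at 20403180 to 20403582. The share of members in a shared run was not computed without this family. In 12 copies the unit had one orientation and 0 of 69 members were on the forward strand. The other 15 copies had the opposite orientation and 97 of 97 members were on the forward strand. The same strand of the unit was therefore read deeply in every copy. By locus, 23 of the 27 were lower in ATO.

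Aligned on these runs, the copies shared a profile of methylation along the unit, and the libraries differed most at its edges. Distances are counted from a fixed CpG at the first copy, taken from its runs of 6 CpGs whether shared or not. Cytosines with at least 50 reads in both libraries were used. The windows were set after the values were seen. In the core, from -500 to 100 bp, the 27 copies averaged 3.79% in control (SD between copies 2.75) and 4.02% in ATO (SD 2.78). Between 100 and 600 bp some CpGs were partly methylated. At 306 bp 16 copies averaged 28.3% (SD 19.6) in control and 32.2% (SD 21.2) in ATO, a difference of 3.88 points (SD 3.31) with 1 copy lower. From 600 to 710 bp the level climbed. In that slope the mean was 30.1% (SD 9.75) in control and 23.8% (SD 8.08) in ATO, and 25 of 27 copies were lower. The mean difference was -6.29 points, with a range from -14.6 to 1.84. Within the slope the difference was -2.44 points at 614 bp (18 copies) and -11.9 points at 702 bp, where the level was 75.0% in control and 63.0% in ATO and all 21 copies were lower. Past the slope, from 780 to 900 bp, 24 copies averaged 72.7 and 72.8%, with 13 lower and 11 higher.

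The opposite edge, with CpGs from -1627 to -1485 bp, showed the largest difference. There 18 copies had CpGs with enough reads, 2 to 5 per copy. No single distance in this window was shared by 8 or more copies. The means therefore pool positions that differ between copies, unlike the values at 306, 614 and 702 bp. Their mean was 61.0% (SD 12.5) in control and 39.5% (SD 10.5) in ATO, a difference of -21.5 points (SD 6.71). All 18 copies were lower, with differences from -36.4 to -8.50 points. Copy levels ran from 44.9 to 83.1% in control and from 27.9 to 63.0% in ATO, so the ranges overlapped between copies although every copy was lower. Median depths in this window were 300.75 reads in control and 362.25 in ATO. The first copy, near 3050245, had 70.2% and 39.98%. The copy near 4959487 had the smallest loss, from 47.6 to 39.1%, and the copy near 6169034 the largest, from 78.1 to 41.8%. The window held 23 members, and these belonged to companion loci, 9 loci with 25 members in all that lay 1734 to 2241 bp from a copy. The values of the companions are thus largely those of the window and no further finding. Of their members, 23 were on the strand opposite to that of the copy's own members. All 9 companion loci were lower, with differences from -34.0 to -0.799 points, and the 4 loci of largest loss named above were among them. The smallest loss was at 7723673 to 7723740, where 2 members averaged 93.7% in control and 92.9% in ATO. These members had medians of 605 and 617 reads, but their neighbour copy, starting at 7721524, was not among the 18. The 18 copies therefore leave out a deeply read place with little loss. Since reads can be exchanged between near-identical copies, the 18 and 27 copies do not count as separate observations.

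**Figure D3:**
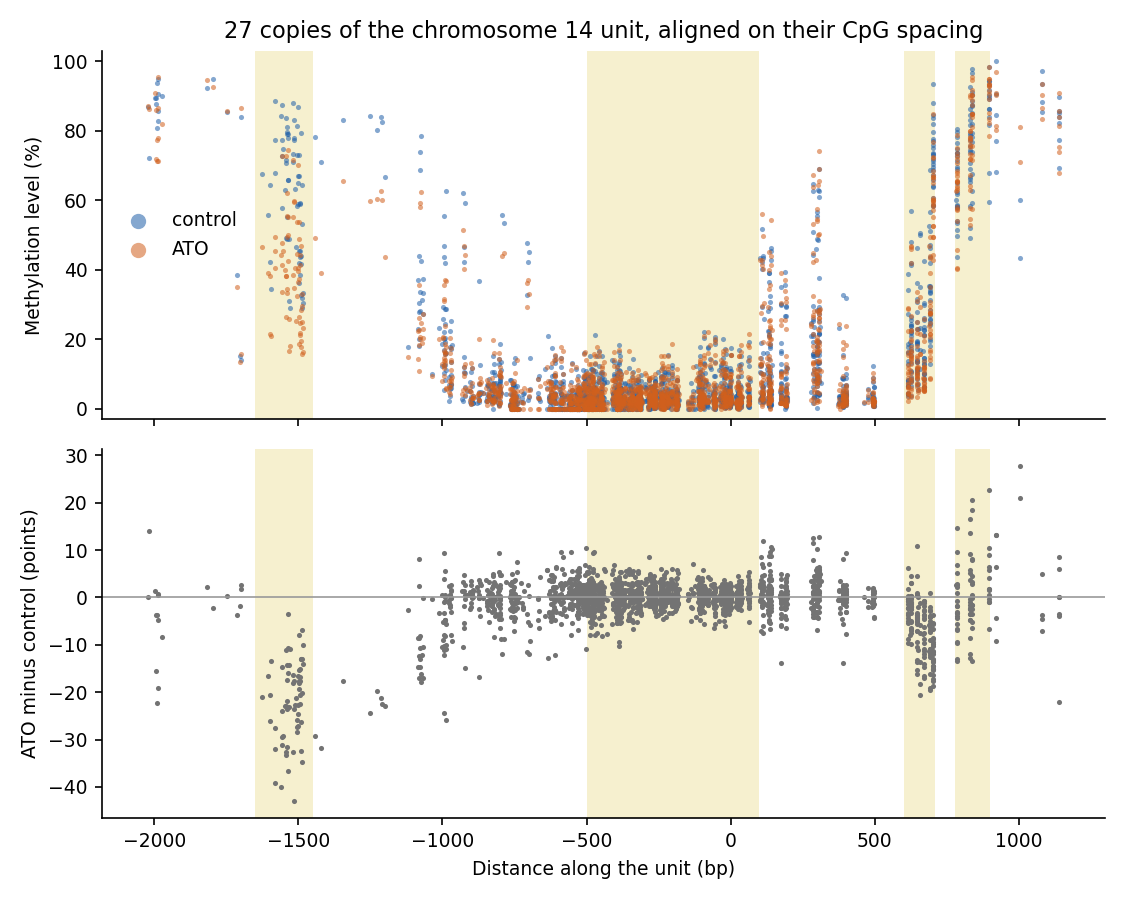
Level (top, percent) and ATO minus control (bottom, percentage points) of each cytosine with at least 50 reads in both libraries in the 27 aligned copies of the chromosome 14 unit, by distance in bp along the unit, with the 4 windows shaded. The core averages 3.79% and 4.02%, and the points at the outer edge, centred on 61.0% in control and 39.5% in ATO, all lie below zero in the lower panel.

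**Figure D4:**
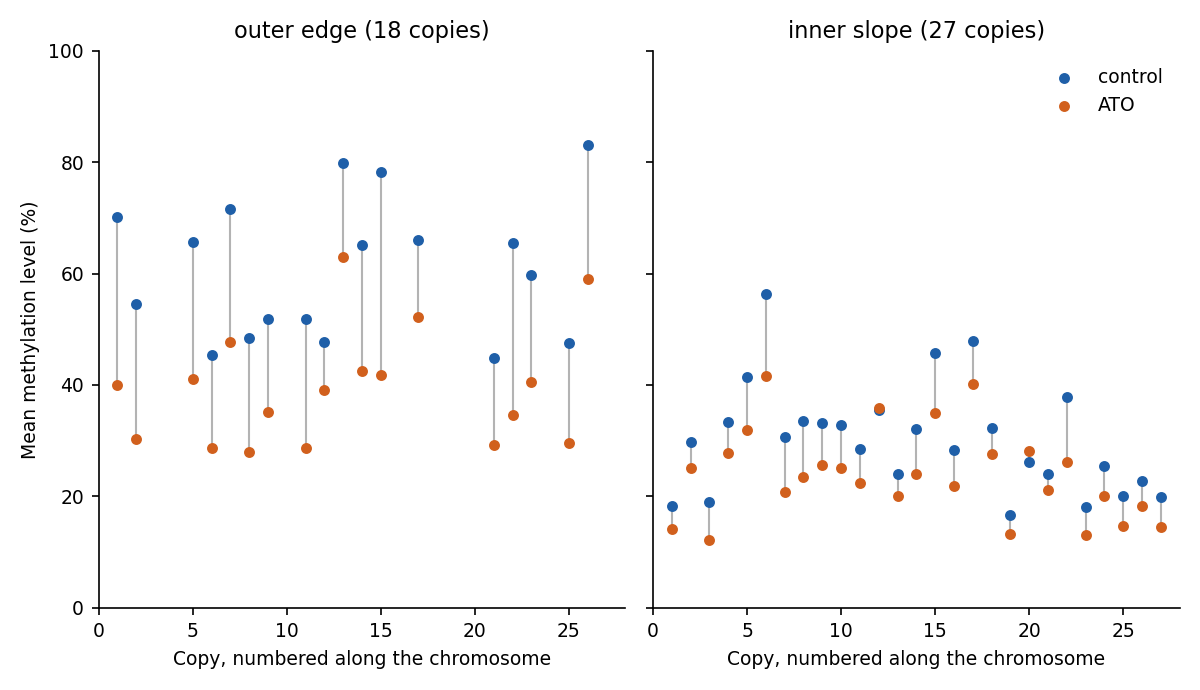
Mean level (percent) of each copy of the chromosome 14 unit in control and in ATO, joined by a line, at the outer edge (left, 18 copies) and the inner slope (right, 27 copies). The ATO point is the lower one in 18 of 18 copies at the edge and 25 of 27 on the slope.

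Other families were smaller. On chromosome 4, 6 loci between 88401187 and 88449718 with 39 members, all on the reverse strand, were all lower, with a median of -6.09 points. The largest of these losses was at 88426219 to 88426382, where 9 members averaged 53.6% in control and 41.5% in ATO. Of these 9 members 7 were called lower at 10 points, against 2.47% of all tested cytosines. The next, 88429117 to 88429282, had 56.7 and 46.2% over 8 members. The remaining loci ran down to 88401187 to 88401255, which differed by -0.344 points at 90.1 and 89.8%. On chromosome 10, 3 loci between 57684448 and 57696006 with 75 members were lower. The loci with 50 and 23 members differed by -0.405 and -0.435 points, and the locus with 2 members by -6.39 points. Among loci with 3 or more members the largest gains were at a pair of loci that shared a run. Of loci with 1 or 2 members, 6 had larger gains. At chromosome 8, 19973961 to 19974035, 3 members averaged 84.0% (80.2 to 85.4) in control and 93.6% (91.2 to 94.7) in ATO, where the bracketed intervals are on summed calls. Its partner on the contig 8_random, 396663 to 397032, averaged 52.5 and 59.4% over 5 members, with intervals of 47.1 to 53.8% and 53.6 to 60.1% that overlapped slightly.

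The other dense stretches differed less on average, by -1.15 points on chromosome 11, -1.45 on chromosome 8 and -1.25 on chromosome 4. The chromosome 11 group averaged 72.0% in control and 70.8% in ATO, with 16 of 17 loci lower. By Fisher's exact test 0 of its 452 members were called at 10 points, against 3.81% of all tested cytosines (128 at an unadjusted p under 0.05). Its largest locus, 3025974 to 3037694 with 158 members, had 75.1 and 73.8%. Its deepest cytosine, 3031791, had 78.1 and 73.4% (Fisher's exact test over 2976 and 3420 reads, adjusted p = 0.00131). At 3049570 to 3051596 the 67 members averaged 77.9 and 77.0%, with 88.9 and 87.6% at the deepest cytosine, 3050065. At 3091680 to 3093901 the 59 members averaged 79.3 and 80.1%. The deepest cytosine there, 3093785, had 45.2 and 40.6% (Fisher's exact test over 2932 and 3627 reads, adjusted p = 0.00954). The locus at 3083935 to 3085086, with medians of 4183 and 4740 reads, had 76.8 and 75.8%. The chromosome 8 group averaged 50.1 and 48.7%, with 32 of 40 loci lower. At 10 points 16 of its 267 members were called lower and 2 higher, against 2.47 and 1.34% of all tested cytosines. Its mean mixes unlike loci, whose control levels ran from 9.82 to 96.8%. The loci at 19784425 to 19785157 (52 members) and 20019737 to 20020596 (55 members) averaged 12.6 and 9.82% in control and 13.1 and 9.40% in ATO. The most negative loci of the chromosome 8 group, picked after their values were seen, were 19884183 to 19884203 (2 members, 68.3 and 54.5%) and 19710892 to 19711658 (6 members, 77.8 and 66.7%). The chromosome 4 group averaged 72.3 and 71.0%, with 32 of 46 loci lower. At 10 points 2 of its 193 members were called, both lower, against 2.47% called lower over all tested cytosines. The locus with the deepest member, chr15:74916808-74917370, had 16 members with medians of 7939.5 and 9902.5 reads and levels of 77.0 and 75.1%. Another of the deepest loci, on chromosome 8 from 56208291 to 56208581, had 82.9 and 82.7%.

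On the random contigs 12 loci were lower and 4 higher in ATO, with differences from -7.48 to 6.87 points. Of these loci 8 had 3 or more members, including the 8_random locus given above. At 1_random, 1119480 to 1119500, the levels were 88.2 and 87.5%, and at 4_random, 32442 to 32882, they were 86.0 and 87.6%. On 8_random the locus from 683532 to 683568 had 86.2 and 84.6% and that from 820939 to 820976 had 81.4 and 79.0%. On Un_random the levels were 77.6 and 77.1% at 3497049 to 3498251, 18.6 and 16.5% at 2445779 to 2445793, and 59.1 and 54.7% at 5732159 to 5732758.

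Members were more often on the forward strand than other cytosines. The kit's baits are aimed at a single strand of each target, and 4.83% of all tested cytosines and 4.72% of those with 100 reads up to the threshold were on the forward strand. Of the members 21.7% were, or 652, and they carried 17.4% of member calls in control and 19.2% in ATO. By locus, 284 were wholly reverse, 59 wholly forward and 50 mixed. The share was highest on Un_random, at 80% of 15 members. It was 55.9% on chromosome 14, 42.9% on chromosome 2 (35 members), 36.4% on chromosome 9 (22 members) and 33.3% on 8_random (21 members). On chromosome 8 it was 29.9% and on chromosome 17 25.8%. It was 0% on chromosomes 7, 10, 16, 18 and 19 and on 4_random. CpGs with both strands among the members numbered 303. Outside the large chromosome 17 loci the 167 such CpGs averaged 74.2% on the forward and 72.8% on the reverse strand in control, and 72.4 and 71.0% in ATO, with mean differences of -1.80 points on the forward and -1.81 on the reverse strand. Both strands were lower at 91 of them, both higher at 18 and split at 58.

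Depth ratios of the libraries were near the library ratio for most loci. The median member had 1.10 times as many reads in ATO as in control, against 1.09 for all tested cytosines. Over loci with 3 or more members the central 90% lay between 0.769 and 1.24. A few loci stood well apart, and since depth chose the members these values carry no test. Above 1.5 were 5 loci, with control levels from 86.2 to 90.5% and differences in level from -1.20 to 1.07 points. The largest, chr2:98506867-98507413, had 22 members with medians of 2056 reads in control and 4143 in ATO, and levels of 88.4 and 89.1%. It shared a CpG run with chr9:35113003-35113079, whose ratio was 2.11 and whose level was 86.2 and 85.9%. The other 3 were at chr2:98502422-98502508 (2.14), chr9:3024381-3024472 (1.93) and chr12:3109912-3110027 (1.86).

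The lowest ratio of any locus, 0.200, was at a single member, 24619577 on chromosome 1 (picked after its value was seen), with 4130 reads in control and 827 in ATO and levels of 2.28 and 3.26%. The next lowest lay in a stretch of chromosome 5, from 14903465 to 15208805. Its 20 loci held 74 members, all on the reverse strand, with medians of 1113 reads in control and 774 in ATO. The median ratio was 0.696, and all 20 loci were below 1, from 0.496 to 0.791. The 511 shallower cytosines in the same stretch, which the rule did not choose, had a median ratio of 0.727, with 439 below 1. In the 500 kb before it the ratio was 1.12 (69 cytosines), and in the 500 kb after it the ratio was 1 (126 cytosines). Levels in the group were 64.3% in control and 65.2% in ATO, with 14 loci higher and 6 lower. The 511 shallower cytosines averaged 64.3 and 63.8%, with 242 higher and 253 lower. It also held 1 of the 2 members called higher at 25 points, 14903539, with 36.1% of 1488 reads in control and 63.4% of 879 in ATO (Fisher's exact test, adjusted p = 2.8e-32). The other was chr15:54686364, with 47.6% of 548 and 75.1% of 614 reads (Fisher's exact test, adjusted p = 1.2e-17). Both were picked out after their values were seen. Of the 13 loci with 3 or more members and a ratio below 0.9, 12 lay in this group, and the remaining one was the contig locus Un_random, 5732159 to 5732758, at 0.668.

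**Figure D5:**
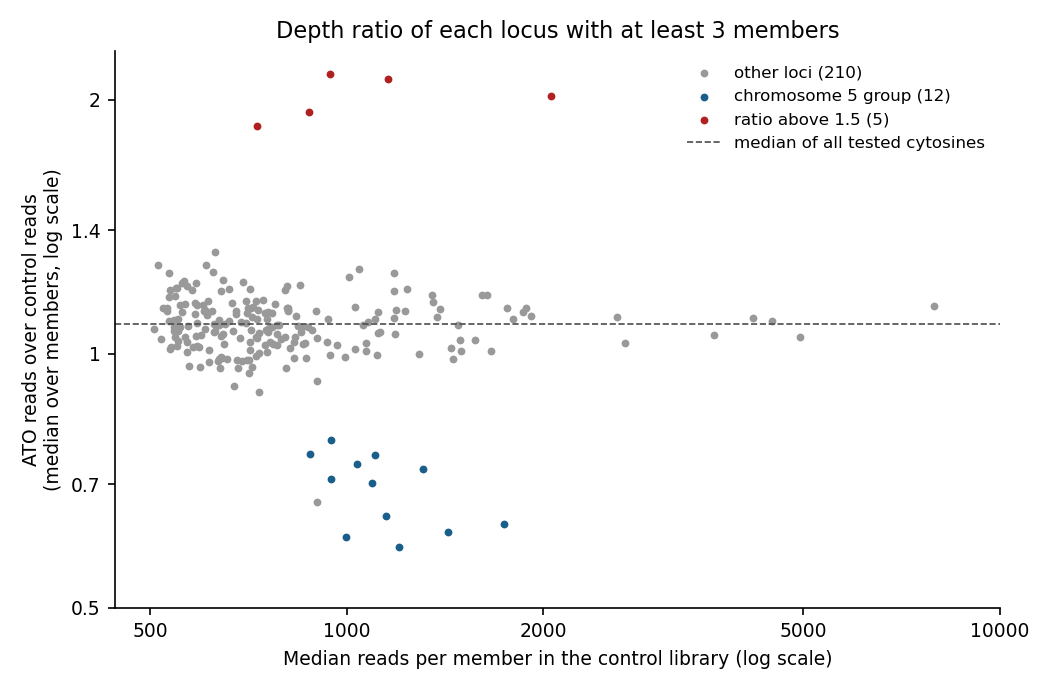
Median ratio of ATO to control reads (y axis, log scale) against median reads in the control library (x axis, log scale) for each of the 227 loci with at least 3 members, with a dashed line at 1.09, the median of all tested cytosines. The 5 loci above 1.5, and the chromosome 5 loci with 1 contig locus at 0.668 among them, lie apart from the rest. The chromosome 5 loci are at most 0.791.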

How the data were processed

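The 2 libraries hold CpG methylation from bisulfite sequencing after target enrichment, 1 of control and 1 of ATO mice, so the tests compare libraries and not conditions. Per the submitters' processing notes, the tools were Bismark 0.19.0, bcl2fastq and Bowtie2, and the build was mm9. Trimming, the removal of duplicates and the treatment of reads with several placements were steps not given in the sources used here. If duplicates were kept, reads are not independent molecules, so intervals and p-values cover counting error only. Per the file headers, the authors deposited for each CpG cytosine and strand the coverage, a count of reads, and the percent of reads with C and with T. Multiplying coverage by percent C gave the methylated counts, which were whole in 100% of cases within 0.005 percentage points of rounding. Above 10000 reads, which 8 members had, that rounding does not fix the count to the single read.

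Members had at least 500 reads in both libraries. The members, loci and windows were chosen with earlier results of these data known. Fisher's exact test ran over 2311800 cytosines with at least 10 reads in both libraries, with a Python routine checked against scipy 1.17.1 (numpy 2.4.6, pandas 2.3.3, numba 0.67.0). In data simulated at the real depths of all 2311800 cytosines, 100 of 100 members changed by 35 points were recovered at 25 points, and 97 of 100 changed by 15 points at 10 points, with 1 false call each. The simulation held counting error only, so it does not measure false calls in these data. Exact (Clopper-Pearson) 95% intervals of loci used summed calls divided by the largest number of members in any 300-bp stretch. CpG runs had 6 CpGs spanning 100 to 1000 bp, at places over 2000 bp apart. The loci named were the 8 with most members, the 5 with the deepest cytosines, the 4 with the largest loss and the 4 with the largest gain among loci of 3 or more members, and those of 3 or more members on random contigs. Of single cytosines, the deepest in each of the 8 largest loci was named, with the 3 nearest on each side of the threshold. Other loci named belong to the chromosome 4, 5 and 14 groups and the families, or were chosen after their values were seen. Alternatives varied the depth minimum, joining distance, weighting, strand, loci included and adjustment. No sequences are printed, since no mm9 genome was used.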

Additional observations from a re-analysis of the deposited data

How the results depend on the processing

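No paired analysis was possible because each group has 1 library. With a depth minimum of 250 there were 11701 members, with a mean difference of -0.346 points. At 25 points 106 (0.906%) were called and at 10 points 811 (6.93%), against 2.65 and 3.81% over all tested cytosines. With 1000 reads there were 1098 members. Of these 9 (0.82%) were called at 10 points and 0 at 25 points by Fisher's exact test (569 at an unadjusted p under 0.05). Their mean difference was 0.959 points, the reverse of -0.164, and 16.1% were on the forward strand. Joining within 200 bp gave 607 loci. The mean difference was -1.01 points without the largest locus, -0.457 on the forward and -0.0822 on the reverse strand, 1.04, again reversed, with each call weighted alike, and -1.56 with each locus weighted alike. The next alternatives were chosen after seeing the data. Without both large chromosome 17 loci the mean was -1.19 points. Without the chromosome 14 group it reversed to 0.192 points, and 84 members (3.01%) were called at 10 points. The outer edge of the chromosome 14 unit differed by -20.1 points with at least 20 reads. The chromosome 17 difference was 0.198 points at the other tested cytosines under 500 reads, the methylated stretch included, 3.83 on the forward and 4.95 on the reverse strand. Apart from the depth minimum and the loci left out, which change the cytosines counted, the cause of the changes was not tested. The 26 loci that the naming rule gave had 76 values under alternatives, of which 74 stayed within the main value's interval. Where a locus held only reverse-strand members, or its span no other tested cytosine, that alternative equalled the main value by construction. The 74 include such values, so the count is not a measure of robustness. With every tested cytosine of the span, the chromosome 11 locus at 106909956 moved to -0.435 points and the 8_random locus at 683532 to -5.69 points. The 1 library per group limits every result, whatever its depth.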
